A study of Mus musculus with 8 samples.

Results

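Kit ligand and the endothelin genes were examined in fibroblasts from the skin of mice with and without an Nd2 mutation. The genes Kitl, Kit, Edn1, Ednra, Ednrb and Ece1 were taken by symbol, with every probe of each gene on the array. They were chosen because Kitl was higher and Ednrb lower on the Nd2-mutant arrays of these data, so their strain values are given as a description with no test. Of the 6 genes, 5 had a probe, which gave 9 of the 25697 probes and 5 of the 18138 genes of the array. No probe was listed under Kit or its other names c-Kit and CD117, so the receptor of Kit ligand was not measured. A probe was tested if its detection p-value was under 0.01 on all 4 arrays of at least 1 strain. This left 7 of the 9 probes, from all 5 genes, among 10414 tested probes of 8003 genes.

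Primary skin fibroblasts came from 8 mice of 12 months, with 1 array for each mouse. The Nd2-mutant group was the strain C57BL/6J-mtALR/LtJ (males 28 and 32, females 34 and 35), and the control group was the strain C57BL/6J-mtAKR/J (males 16 and 17, females 15 and 37). Both strains are conplastic, which means that the nuclear genome of C57BL/6J was combined with the mitochondrial genome of a donor strain, ALR/LtJ or AKR/J. Nd2 is a mitochondrially encoded subunit of respiratory complex I, and no group had the mitochondrial genome of C57BL/6J itself. Cells had been released from skin by enzymatic digestion and were grown in DMEM with fetal calf serum, so the levels are those of cultured cells, and p-values measure the spread between these mice.

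Kit ligand, also called stem cell factor, is made by fibroblasts, keratinocytes and endothelial cells, in a membrane-bound and a shed form. It binds the receptor tyrosine kinase Kit on melanocytes and mast cells, which depend on it for survival. Endothelin-1, the product of Edn1, is made as a precursor and is cut to the active peptide by endothelin-converting enzyme 1, the product of Ece1. It acts through the G protein-coupled receptors Ednra, the main receptor of smooth muscle and mesenchymal cells, and Ednrb, which is known for its part in melanocyte and enteric neuron development and in the clearance of endothelin by endothelium. In skin, both ligands are textbook paracrine signals to melanocytes.

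The 250 bases before the RefSeq start of Edn1 and of Ednra (GRCm38.p6) are shown because these were the members that varied most among mice of one strain, over all 8 mice. Edn1 is at chr13:42301476-42307990 on the plus strand and its window at chr13:42301226-42301475. Ednra is at chr8:77663029-77724452 on the minus strand and its window at chr8:77724453-77724702. Capitals would mark a match on either strand to the TATA box (TATAAA), the AP-1 motif (TGANTCA), the GATA motif (GATAA), the GC box (GGGCGG) or the core of the hypoxia response element (ACGTG).
Edn1: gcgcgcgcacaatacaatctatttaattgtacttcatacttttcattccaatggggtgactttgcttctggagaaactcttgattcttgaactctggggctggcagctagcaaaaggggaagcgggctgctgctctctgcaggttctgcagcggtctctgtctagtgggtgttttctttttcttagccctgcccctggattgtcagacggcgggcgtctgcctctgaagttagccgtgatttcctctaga
Ednra: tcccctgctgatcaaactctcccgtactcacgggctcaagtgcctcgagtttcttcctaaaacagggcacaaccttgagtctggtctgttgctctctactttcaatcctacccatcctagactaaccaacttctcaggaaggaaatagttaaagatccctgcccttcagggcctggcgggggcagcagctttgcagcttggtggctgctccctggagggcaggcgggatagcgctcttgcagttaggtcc
Neither window held any of these letters, which says only that they are not in these bases. Among 32536 different windows of the same length, 12.3% held the TATA box, 6.7% the AP-1 motif, 22.5% the GATA motif, 33.0% the GC box and 16.7% the hypoxia core. The share of G and C was 50.4% for Edn1 and 54.8% for Ednra, beside a median of 52.4%. The listed window of Ednrb lies inside a longer gene model and that of Kitl overlaps one, so they are not printed. The Kitl window, with 69.2% G and C, held the TATA box 25 bases before its start and 3 matches to the GC box, of which a pair overlap.

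Between 10973 and 11350 probes were detected on the Nd2-mutant arrays and between 10663 and 10837 on the control arrays. The array of control mouse 15 stood apart, with a mean correlation of 0.934 with the others, beside 0.963 to 0.974 for the other 7 arrays. Values that move with it are given with and without it. All 12 fibroblast markers examined, such as the collagen gene Col1a1 and the surface protein Thy1, were detected in both strains. Of these genes, 9 were higher and 3 lower in the mutant on average, where 49.8% of all tested probes were lower. Dcn and Lum, which encode matrix proteoglycans, were higher at an unadjusted p under 0.05 by limma (4.50% of all tested probes), with 0 after adjustment. The log2 differences were 0.82 (SE 0.28) and 0.12 (SE 0.24) at the 2 Dcn probes, the second not under that p, and 0.88 (SE 0.31) for Lum. Without mouse 15, Pdgfra was also higher at an unadjusted p under 0.05 (0.61, SE 0.16). The part of this in the Kitl values was not tested. Over all tested probes, limma called 0 probes between the strains after Benjamini-Hochberg adjustment (smallest adjusted p = 0.639), and 469 were higher and 326 lower in the mutant at an unadjusted p under 0.05.

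Kitl was the member with higher levels in the Nd2-mutant fibroblasts. Its probe ILMN_2751988 read 56.1, 39.0, 73.2 and 72.3 intensity units in Nd2-mutant mice 28, 32, 34 and 35. In control mice 15, 16, 17 and 37 it read 19.5, 16.4, 25.0 and 27.4. The lowest Nd2-mutant mouse, male 32, lay above the highest control mouse, female 37. The mean was 60.1 ± 16.2 in the mutant and 22.1 ± 5.02 in the control strain (SD, n = 4 each), a ratio of 2.73. On the scale of log2(intensity + 16) the difference was 0.98 (SE 0.19), with 0.79 in males and 1.18 in females. Of all tested probes, 2.24% were higher in the mutant without overlap of the strains, and this contrast chose the gene. The second Kitl probe, ILMN_2676022, was not detected on any array (lowest detection p-value 0.491), so the difference rests on 1 probe, and no probe sequence was used here to tell which Kitl transcripts either probe reads. Because the levels were low, the log2 difference depended on the constant added, with 1.39 for 1 and 0.60 for 50. In a bulk sample, fewer cells of a type and less RNA per cell cannot be told apart.

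**Figure D1:**
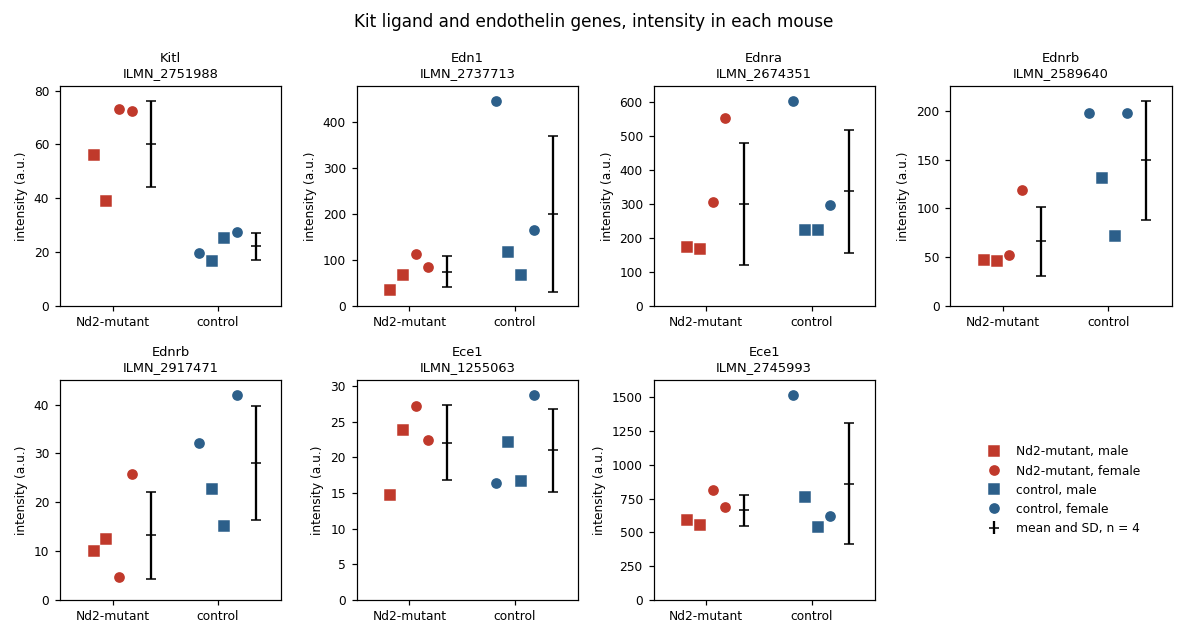
Normalised intensity (vertical axis, arbitrary linear units from 0) of the 7 tested probes of Kitl, Edn1, Ednra, Ednrb and Ece1 in each mouse, by strain, with squares for males, circles for females and black bars for mean and SD (n = 4). Kitl is the panel in which the strains do not overlap, and control female 15 is the highest point for Edn1, for Ednra and for Ece1 probe ILMN_2745993.

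Edn1 read lower on average in the mutant, with a wide spread in the control strain. The Nd2-mutant mice 28, 32, 34 and 35 had 32.9, 66.9, 112 and 84.6 units. Control mice 15, 16, 17 and 37 had 448, 117, 67.0 and 166. Control male 17 lay below 2 of the 4 mutant mice, so the strains overlapped, and the control mean was set largely by female 15. The means were 74.2 ± 33.2 and 199 ± 170.3 (SD, n = 4 each), and the log2 difference was -1.04 (SE 0.47), or -0.57 without mouse 15. Ordered by strain and sex, mean Edn1 levels were 49.9 in mutant males, 92.2 in control males, 98.4 in mutant females and 307 in control females. The control males, at 117 and 67.0, enclosed the mutant females, at 112 and 84.6, and the mutant males reached 66.9.

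The receptors differed in how they varied. Ednra read 174, 168, 307 and 552 in Nd2-mutant mice 28, 32, 34 and 35, and 605, 223, 223 and 296 in control mice 15, 16, 17 and 37. The strains overlapped over most of their range, and the log2 difference was -0.20 (SE 0.40). It turned to 0.12 without mouse 15. Group means of Ednra were 171 in mutant males, 223 in control males, 429 in mutant females and 450.1 in control females, so that the order followed sex.

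Ednrb, the other endothelin receptor, had 3 probes. The brightest, ILMN_2589640, read 47.3, 45.3, 51.8 and 119 in Nd2-mutant mice 28, 32, 34 and 35. In control mice 15, 16, 17 and 37 it read 198, 131, 71.0 and 198. Mutant females 34 and 35 differed from each other more than the mutant males did, and female 35 lay above control male 17, which is where the strains overlapped. The means were 65.7 ± 35.3 and 149 ± 61.0 (SD, n = 4 each), and the log2 difference was -1.01 (SE 0.33), with -0.86 in males and -1.16 in females.  Probe ILMN_2917471 read 9.92, 12.5, 4.71 and 25.7 in the mutant mice and 32.2, 22.7, 15.2 and 42.0 in the control mice, for the same order of mice. It was detected on 2 of the 4 mutant arrays and on all 4 control arrays, so it passed the filter through the control strain alone. Its log2 difference was -0.60 (SE 0.25), and the strains overlapped because mutant female 35, at 25.7, lay above control males 17 and 16. The remaining probe, ILMN_2717765, was not detected on any array (lowest detection p-value 0.0564).

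Ece1, the converting enzyme, read 593, 557, 816 and 689 at probe ILMN_2745993 in Nd2-mutant mice 28, 32, 34 and 35. The control mice 15, 16, 17 and 37 read 1519, 759, 541 and 618. Apart from female 15, the control values lay within the mutant range or just below it. The log2 difference of -0.26 (SE 0.29) was 0.05 without that mouse. The dimmer probe ILMN_1255063 read between 14.7 and 27.2 in the mutant and between 16.4 and 28.8 in the control strain, with a log2 difference of 0.04 (SE 0.16), and mouse 15 had its lowest control value there. The Ece1 probes therefore disagreed on mouse 15.

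Of the 7 tested member probes, 5 were lower on average in the mutant, beside 49.8% of all tested probes. None of these 5 was lower without overlap, which 2.13% of all probes were. The members were chosen on this contrast, so nothing is read from these shares.

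Sex was balanced over the strains and took no part in choosing the members, so it was tested. All 7 member probes were lower in males than in females, beside 47.6% of all tested probes lower in males. Ednra was the member whose sexes did not overlap, with 197 ± 29.9 in males and 439.6 ± 161 in females (SD, n = 4 each). Every male, at 168 to 223, lay below every female, at 296 to 605, which 2.67% of all probes did in this direction. The exact two-sided permutation test of Ednra gave p = 0.0286, the smallest that 4 against 4 allows. By limma with strain as a term, the log2 difference of Ednra was -1.04 (95% interval -1.59 to -0.49, adjusted p = 0.322), so it did not pass over all probes.

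Edn1 had the largest log2 difference between the sexes among the members, but its sexes overlapped. Edn1 averaged 71.1 ± 34.8 in males and 203 ± 167 in females (SD, n = 4 each), a log2 difference of -1.15 (95% interval -1.87 to -0.43, adjusted p = 0.384 by limma), or -0.82 without mouse 15. Males and females overlapped through male 16, at 117, and females 34 and 35, and the exact permutation test gave p = 0.0857. For Ednrb probe ILMN_2589640 the means were 73.7 ± 40.0 and 141 ± 70.4 (SD, n = 4 each), with a log2 difference of -0.77 (95% interval -1.30 to -0.23, adjusted p = 0.461 by limma, exact permutation p = 0.171). These 3 probes, of Edn1, Ednra and Ednrb, were the members lower in males at an unadjusted p under 0.05 by limma, where 4.45% of all probes were. After adjustment 0 members passed, and 0.0192% of all probes were called lower in males.

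The other members gave smaller sex differences, whose intervals included 0. They were -0.30 for Kitl (95% interval -0.67 to 0.07), -0.48 and -0.16 for the Ece1 probes and -0.36 for the second Ednrb probe, with adjusted p from 0.667 to 0.809 by limma. Leaving out mouse 15 changed the Ece1 value of -0.48 to -0.20, and leaving out mice 15 and 35 together changed that of Ednra from -1.04 to -0.58. With limma's array weights, which give arrays that fit less well a lower weight, Ednra passed (log2 difference -0.94, adjusted p = 0.0249). Over 20 alternatives its adjusted p ran from 0.0249 to 0.963.

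**Figure D2:**
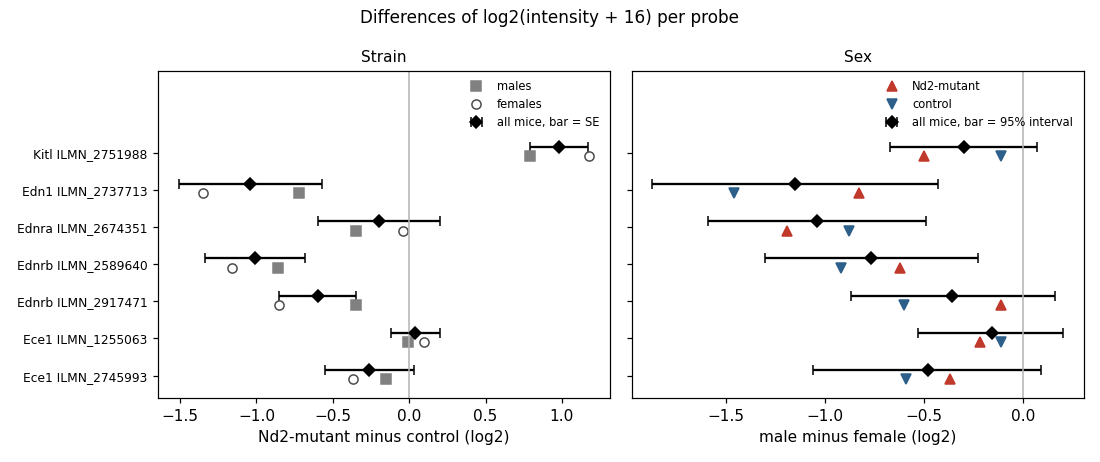
Differences of log2(intensity + 16) for the 7 tested member probes, between strains on the left (diamonds with SE bars, squares for males, open circles for females) and between sexes on the right (diamonds with 95% intervals, upward triangles for Nd2-mutant, downward triangles for control mice). Kitl, with 0.98, lies farthest to the right by strain, and all 7 probes lie left of 0 by sex in both strains.

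The strain difference was next compared between the sexes. For Kitl it was 0.79 in males and 1.18 in females, an interaction of -0.39 (95% interval -1.14 to 0.37). Those of Edn1 and Ednra were 0.63 (95% interval -0.86 to 2.12) and -0.31 (95% interval -1.49 to 0.86). None of the 7 probes passed after adjustment by limma, and 0 were under an unadjusted p of 0.05, beside 1.77% of all probes. With 2 mice for each strain and sex, these intervals allow a difference between the sexes as large as the strain differences themselves.

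Edn1 and the endothelin receptors varied widely between mice of the same strain. The SD of log2 values within strains was 0.85 for Edn1 (percentile 98.9 among tested probes), 0.71 for Ednra (97.7), 0.58 and 0.40 for Ednrb probes ILMN_2589640 and ILMN_2917471 (94.4 and 82.4). The Ece1 probes ILMN_2745993 and ILMN_1255063 had 0.49 (percentile 90.4) and 0.22 (34.9). Kitl, with 0.27 (percentile 52.5), was close to the median probe at 0.26. Without mouse 15 the SD was 0.58 for Edn1 (percentile 97.0), 0.56 for Ednra (96.6), 0.60 and 0.44 for the Ednrb probes (97.2 and 92.3), and 0.24 for Ece1 probe ILMN_2745993 (60.5). Relative to their strain's mean, Edn1, Ednra, Ednrb probe ILMN_2589640 and Ece1 probe ILMN_2745993 were all lower than average in mutant males 28 and 32 and control males 16 and 17. All 4 were higher than average in mutant female 35 and control female 15. At these 4 probes female 15 deviated by 1.41 for Edn1, 0.94 for Ednra, 0.46 for Ednrb and 0.93 for Ece1 on the log2 scale. The other Ece1 probe, ILMN_1255063, differed from this, with 0.08 in male 32, 0.06 in male 16 and -0.18 in female 15. Ednrb probe ILMN_2917471 was at 0.01 in male 32. For Kitl, female 15 deviated by -0.09.

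Across the 8 mice, after subtraction of each strain's mean, Pearson's r was 0.77 between Edn1 and Ednra. Ednrb probe ILMN_2589640 gave 0.79 with Ednra and 0.65 with Edn1. These are descriptions over mice that share sex and array quality. Without mouse 15 they were 0.58, 0.77 and 0.62. Ednrb probe ILMN_2917471 gave lower values, 0.55 with Ednra and 0.38 with Edn1. Ece1 probes ILMN_2745993 and ILMN_1255063 gave 0.88 and 0.25 with Edn1, or 0.65 and 0.97 without mouse 15. With each other they gave -0.15, or 0.49 without that mouse. The 2 Ednrb probes followed each other with r = 0.88. Kitl gave r = 0.08 with Edn1, 0.48 with Ednra and 0.30 with Ednrb probe ILMN_2589640. Without mouse 15 these were 0.33, 0.74 and 0.39.

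**Figure D3:**
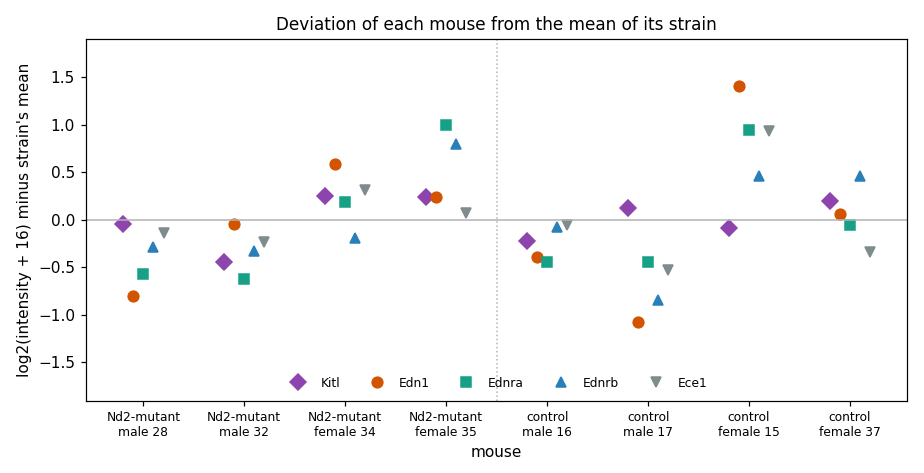
Deviation of each mouse from its strain's mean on the scale of log2(intensity + 16) (vertical axis) for Kitl, Edn1, Ednra, Ednrb probe ILMN_2589640 and Ece1 probe ILMN_2745993, with mice ordered by strain and sex. The endothelin points of all 4 males lie below 0, and those of females 35 and 15 lie above it, where Edn1 reaches 1.41 in control female 15.

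Probes of other genes with the most similar pattern were sought over the same 8 mice, within strains. For Kitl these were LOC100046035 (r = 0.97), Gas2l1 (0.95) and Smug1 (0.95). For Edn1 they were A630042L21Rik (0.99), Ptk7 (0.98) and Luzp1 (0.98), and for Ednra they were Larp6, Agpat3 and Sh3gl1 (0.98 each). Ednrb was followed by Wtip (0.96), Cx3cl1 (0.96) and Spnb2 (0.95), and Ece1 by Pcdhga4 (0.996), Rbak (0.996) and Ilvbl (0.993). These r are the highest of all tested probes over 8 mice and therefore high by selection.

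Markers of the cells that receive or make these signals were read in the same arrays. Of 10 melanocyte genes listed, 9 were on the array, and the pigment genes Tyr, Tyrp1, Dct, Mlana, Slc45a2 and Oca2 were not detected on any array. Mitf, the melanocyte transcription factor, was detected on 1 array of each strain. Only Gpnmb, which macrophages also express, passed the filter, with its highest values in mutant female 35 (1305) and control female 15 (1456). Mast cells carry Kit, and of their 10 markers 8 were not detected on any array, among them Cpa3, Mcpt4 and Cma1.

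Some endothelial genes were detected, and most were highest in control mouse 15. Their summed intensity was 409 to 640.0 in the mutant, 561 to 845 in control mice 16, 17 and 37, and 1591 in control mouse 15, which also had the highest Edn1. Pecam1, an endothelial adhesion protein, read 88.6 in mouse 15 and 14.2 to 33.5 in the other 7 mice, while Kdr, the main receptor for VEGF, was not detected on any array. Emcn, an endothelial sialomucin, was 50.9 to 124 in the mutant and 125 to 272 in the control strain (log2 difference -1.20, SE 0.27). Of the 6 endothelial genes tested, Emcn was the 1 at an unadjusted p under 0.05 by limma, and 0 passed after adjustment. Without mouse 15 its difference was -1.10 (SE 0.29), that of Pecam1 -0.06 (SE 0.17) in place of -0.40 (SE 0.31), and those of the Egfl7 probes -0.16 and -0.15. Tek, an angiopoietin receptor, differed the other way, by 0.49 (SE 0.33), or 0.67 (SE 0.33) without mouse 15.

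Genes of smooth muscle and pericytes, cells known for Ednra, were partly lower in the mutant. Of 7 tested genes, 4 were lower at an unadjusted p under 0.05 by limma (Actg2, Myh11, Cspg4 and Mcam), and 0 passed after adjustment. By probe these were 6 of the 12 tested, with every Mcam probe among them, beside 3.13% of all tested probes. The list was chosen with earlier results of these data known, so nothing is read from this share. Mcam probe ILMN_2614531 read 36.7 to 57.1 in the mutant and 69.5 to 234 in the control strain, and mouse 15 was again the highest. Without mouse 15, 6 of the 7 genes were lower by the same measure and 0 passed. Over all tested probes, that fit had 830 at an unadjusted p under 0.05 in either direction, beside 795 with all mice. Mcam probe ILMN_2614531 differed there by -0.88 (SE 0.20) in place of -1.16 (SE 0.28). Acta2 was among the 6 through probe ILMN_2923445 (-0.39, SE 0.16), beside -0.10 (SE 0.14), -0.28 (SE 0.26) and -0.36 (SE 0.25) at its other probes. With all mice that probe gave -0.23, and the others, in the same order, -0.15, 0.33 and 0.25. The list's summed intensity was 24781 to 28540.1 in the mutant and 24024 to 37727 in the control strain. Summed macrophage markers were 1522 in mutant female 35, 258 to 347 in the other mutant mice and 209 to 553 in the control mice. The part of these cells in the values of Edn1, Ednra and Ednrb was not tested.

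**Figure D4:**
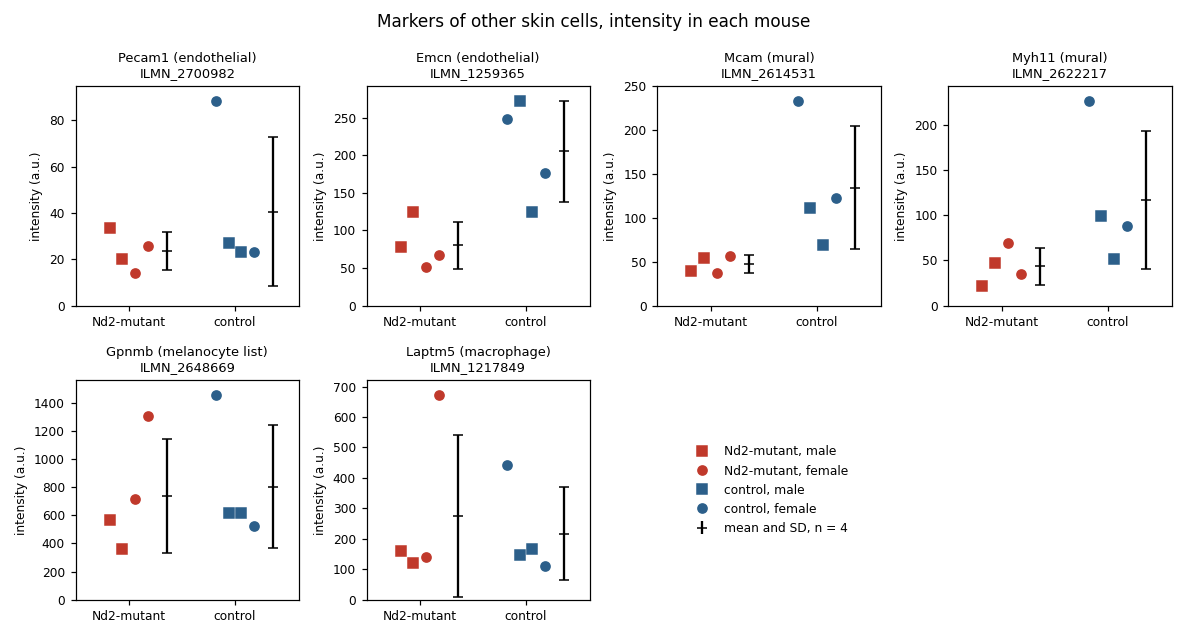
Normalised intensity (vertical axis, arbitrary linear units from 0) of 6 marker probes of other skin cells in each mouse, drawn as in the plot of the members. Control female 15 is the highest mouse for Pecam1, Mcam, Myh11 and Gpnmb, mutant female 35 for Laptm5, and the strains do not overlap at Emcn, with 124 as the highest mutant and 125 as the lowest control value.

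The rest of the endothelin pathway was listed as 18 genes, of which 11 could be tested at 12 probes. The ligands Edn2 and Edn3 and the peptidases Mme, Kel and Ecel1 were not detected on any array, so Edn1 was the only endothelin detected here. At an unadjusted p under 0.05 by limma, 3 genes were higher in the mutant and 1 lower, and 0 passed after adjustment (adjusted p = 0.639 for each). By probe these were 3 and 1 of the 12, beside 4.50% and 3.13% of all tested probes. The list was chosen with earlier results of these data known, so nothing is read from these shares. Gna12, a G protein subunit, averaged 35.1 ± 3.39 in the mutant and 15.2 ± 13.8 in the control strain (SD, n = 4 each). It was detected on 2 control arrays, and the strains overlapped through control 37. Grk5, a kinase that desensitises G protein-coupled receptors, differed by 0.50 (SE 0.17) on the log2 scale at probe ILMN_2637571, which all 4 mutant arrays and 1 control array detected. Gna12 and this Grk5 probe thus passed the filter through the mutant alone, where they were higher. The other Grk5 probe, ILMN_1249435, was detected on all arrays and differed by 0.44 (SE 0.24), not under an unadjusted p of 0.05 by limma. Prkca, protein kinase C alpha, differed by 0.39 (SE 0.17) on the log2 scale, and by 0.28 (SE 0.15) without mouse 15, where it was no longer under an unadjusted p of 0.05. Itpr1, the inositol trisphosphate receptor that releases calcium after Gq activation, read 326 to 357 in the mutant and 356 to 619 in the control strain, a log2 difference of -0.49 (SE 0.17). The receptors' own G proteins Gnaq and Gna11 differed by 0.05 and 0.12, and Plcb3, a phospholipase C they activate, by -0.17. The median over the genes of the list was 0.12, beside 0.00 for all tested probes. Without mice 15 and 35 the list had 2 genes at an unadjusted p under 0.05 in place of 4.

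Of 20 genes that act below Kit or release its ligand, 19 were on the array and 9 could be tested at 13 probes. The regulatory subunit of phosphoinositide 3-kinase Pik3r2 was the 1 gene higher at an unadjusted p under 0.05, with 0.35 (SE 0.16) at probe ILMN_2732317, but its other probe gave -0.15 (SE 0.21). No gene was lower by that measure, and 0 passed after adjustment (adjusted p = 0.639 for Pik3r2 by limma). Stat5a, a transcription factor activated by Kit, differed by 0.36 (SE 0.20), or 0.46 (SE 0.19) without mouse 15, where it was at an unadjusted p under 0.05, the kinase Src by -0.13 (SE 0.17), and Adam17, a protease that sheds membrane-bound Kit ligand, by -0.23 (SE 0.16). Adam10 was not detected on any array. The median over the genes was -0.04.

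Of 22 other listed genes through which skin cells act on melanocytes, 21 were on the array and 14 could be tested at 20 probes. At an unadjusted p under 0.05 by limma, 2 genes were higher in the mutant and 4 lower, and 0 passed after adjustment (adjusted p = 0.639 for each). By probe these were 4 and 4 of the 20, beside 4.50% and 3.13% of all tested probes, and 3 of the 4 higher probes were of Cxcl12. The list was chosen with earlier results of these data known, so nothing is read from these shares. The chemokine Cxcl12 was higher at all 3 of its tested probes. Its remaining probes, ILMN_3078973 and ILMN_2746295, were not detected on any array. Probe ILMN_2737302 of Cxcl12 read 1581, 662, 767 and 1477 in mutant mice 28, 32, 34 and 35, and 368, 171, 503 and 399 in control mice 15, 16, 17 and 37, without overlap. Its log2 difference was 1.59 (SE 0.36), and the other tested probes gave 1.48 (SE 0.35) and 0.49 (SE 0.19). Fgf2, a melanocyte mitogen, differed by 0.73 (SE 0.29), with all 4 mutant and 2 control arrays detecting it. Without mouse 15, Fgf2 gave 0.57 (SE 0.29) and was no longer under an unadjusted p of 0.05, while Sfrp2, a secreted Wnt modulator, was, with 1.32 (SE 0.46) in place of 0.80 (SE 0.57).

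Lower in the mutant by the same measure were Bmp4, Il6, Tgfb2 and Lif. Bmp4 and Tgfb2 were each detected on 3 mutant and 4 control arrays, so they passed the filter through the control strain alone. Bmp4, a morphogen that acts on melanocytes, read 13.6, 26.0, 9.78 and 21.5 in the mutant mice and 92.7, 60.9, 31.4 and 119 in the control mice, without overlap and with a log2 difference of -1.37 (SE 0.30). The cytokine Il6 averaged 77.0 ± 29.5 and 133 ± 21.4 (SD, n = 4 each), and Tgfb2, a member of the TGF-beta family, 20.2 ± 9.57 and 49.2 ± 21.3 (SD, n = 4 each). Lif differed by -1.04 (SE 0.45) at 1 tested probe and -0.71 (SE 0.40) at the other. Without mouse 15 these were -0.76 (SE 0.45) and -0.51 (SE 0.42), with neither under an unadjusted p of 0.05. Hgf, a further melanocyte growth factor, differed by 0.25 (SE 0.16), and its receptor Met was not detected on any array. The median over the genes of the list was -0.07, with 7 genes on each side of 0. Without mice 15 and 35, 3 genes in place of 6 were at an unadjusted p under 0.05.

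**Figure D5:**
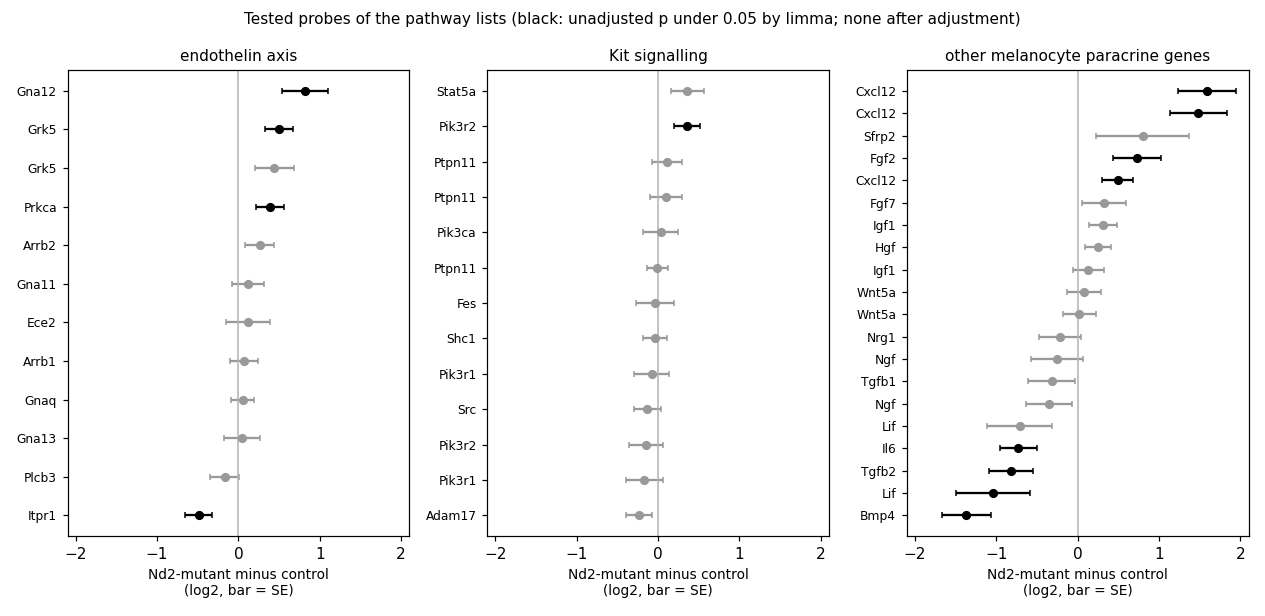
Difference between Nd2-mutant and control mice on the scale of log2(intensity + 16) (horizontal axis, bars for SE) at every tested probe of the endothelin, Kit signalling and other melanocyte paracrine lists, with black points for an unadjusted p under 0.05 by limma. Cxcl12 with 1.59 and Bmp4 with -1.37 lie farthest from 0, and no probe passed after adjustment.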

How the data were processed

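Total RNA of skin fibroblasts had been hybridised to MouseRef-8 v2.0 BeadChips, 1 array for each of 8 mice. The authors extracted the intensity of each probe in GenomeStudio (named in the submitters' notes, version not given in the sources used here), quantile normalised it between arrays and subtracted background. The deposited intensity values are linear and reach from -12.3 to 13935. The deposited detection p-value of a probe compares it with background. The 2 deposited tables held the same bytes, so other background corrections or normalisations could not be run, and no chip is named, so no chip block was fitted. Quantile normalisation gives all arrays the same distribution, so a shift of all genes cannot be seen. The number of arrays limits the precision.

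Values under 0 were set to 0, 16 was added and log2 taken. Strain, sex (with strain as a term) and their interaction were fitted over all 10414 tested probes with limma 3.58.1 (lmFit and eBayes, two-sided, Benjamini-Hochberg, threshold 0.05) in R 4.3.3, and the steps were tested on simulated data. A single member's sex difference was also tested by exact permutation. Each probe was kept apart, and levels of different probes were not compared. Groups came from the sample labels.

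The members, the pathway and marker lists and the comparisons were chosen with earlier results of these data known. Named were every member probe, the pathway genes at an unadjusted p under 0.05 by strain with up to 4 more of smallest p in each list, the 3 probes most like each member, the brightest and deviating markers, and genes beside a member's result. The results of 1 marker list are not reported here. Gnaq, Edn2, Edn3 and others at no signal were named for their role. Promoter windows came from RefSeq (GRCm38.p6), where all 6 genes matched by symbol. The build of the array's annotation is not given in the sources used here. Alternatives were other constants, the linear scale, other detection filters, centring, a trended prior, array weights, the methods' t-test, sex as a term and each mouse left out. Leaving out mice 15 and 35 together was added after seeing the data.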

Additional observations from a re-analysis of the deposited data

Results flagged for a closer look

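In 80 groups of 4 values, a mouse lay far from the others in 5, where chance alone would flag about 4. Ednrb probe ILMN_2589640 in Nd2-mutant female 35 had a gap to the next mouse of 0.873 of the strain's range. Prkca in Nd2-mutant male 32 had 0.841, on the low side, and Plcb3 in Nd2-mutant male 28 had 0.905, also low. The summed markers set the same female 35 apart, low for mast cell genes (0.885), whose sum is mostly the transcription factor Gata2, and high for macrophage genes (0.837). No explanation was weighed for any of them.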

How the results depend on the processing

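Kitl and both tested Ednrb probes kept the direction of their strain difference under every alternative run, as did Edn1. The directions of Kitl and Ednrb chose these genes, so nothing is read from their being kept. Because the strains did not overlap at Kitl, its direction could not change with another constant or a mouse left out. Ednra turned to 0.12 without control mouse 15 and to 0.01 without mutant mouse 32, and was -0.00 without mutant mouse 28. The Ece1 probes changed sign in 5 and 3 of 20 alternatives. Kitl gave 1.39 with 1 added, 0.60 with 50 added and 0.90 to 1.13 with single mice left out. For the linear scale its value was 1.45, which is the log2 of the ratio of mean intensities. Ednrb gave -1.29 to -0.86 with single mice left out. By strain, 3 probes were called with no filter and 1 by the methods' t-test, against 0. By sex, 2 were called, against 1 with 50 added, 0 on the linear scale, 8 when detection on any 1 array sufficed, 4 when all 8 were required, 5 after centring, 391 with array weights, 0 by the methods' t-test and 1 without a strain term, and 0 to 11 with a mouse left out. For the interaction, 1 was called, against 0 with 1 added, on the linear scale, with no filter, by the methods' t-test and without mice 15 and 35, and 2 with a trended prior, and 0 to 2 with a mouse left out. Counts at an unadjusted p under 0.05 moved from 795 to between 436 and 1587 by strain, from 865 to between 504 and 2160 by sex and from 184 to between 64 and 1702 for the interaction. In the lists such genes numbered 2 to 5 against 4 (endothelin), 0 to 2 against 1 (Kit signalling) and 3 to 7 against 6 (paracrine). The sex difference of Ednra, -0.94 with array weights, passed there. The interactions, uncalled throughout, changed sign for all members but Kitl. With single mice left out they ran from -0.04 to 1.31 (Edn1), -0.81 to 0.18 (Ednra), -0.19 to 0.80 (Ednrb), down to -0.01 (second Ednrb probe), and -0.35 to 0.12 and -0.43 to 0.85 (Ece1 probes), and without mice 15 and 35 Edn1 gave -0.22 and the Ece1 probes 0.04 and -0.54. The cause of these changes was not tested. No paired analysis was possible because no mouse number occurs in both strains.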
